A study of Mus musculus with 2 samples.

Results

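Imprinted genes are expressed mainly or only from the copy inherited from one parent. The 45 genes described here were listed by name as mouse genes known for parental imprinting, and were arranged by the imprinted cluster they lie in. All 45 were found among the 43346 genes of the tables. They form 10 clusters that hold 37 of the genes and 8 loci with 1 listed gene each, and 20 of the 45 lie on chromosome 7. By the literature 20 are expressed from the maternal copy and 24 from the paternal copy, and the allele of Gnas depends on the start site.

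The study measured total RNA of mouse intestine of strain B6NCrl at embryonic day 14.5, with no treatment or altered allele in the labels. Its only group held 2 libraries, replicates 1 and 2, each from the intestine of 1 pup, with 10 ng of input RNA selected for lengths above 200 nucleotides. The labels give the sex as mixed, and collection dates 2 days apart, the 17th for replicate 1 and the 15th for replicate 2. With 1 group there was no contrast to test. Because the strain is inbred, parental copies carry the same sequence and cannot be told apart in these files, so every statement on an allele below is background from the literature and not a measurement.

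In an imprinted cluster, a control region carries DNA methylation on the maternal or the paternal copy only, set in the germ line and kept through the erasure that follows fertilization. The methylated and unmethylated copies then direct coding genes and long noncoding RNAs of the cluster to opposite chromosomes. Many imprinted genes act on fetal growth, with paternally expressed genes such as Igf2 promoting it and maternally expressed genes such as Cdkn1c restraining it.

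The tissue label was checked against marker genes. All 8 markers of intestinal epithelium and all 8 of enteric neurons were detected, as were 6 of 7 of mesenchyme and muscle, where Barx1 had a level of 0.20 and 0.23 TPM. Detection here means at least 1 TPM in both libraries, where TPM is a gene's read count divided by its length and scaled to the same total over all features in each library. The libraries stood apart in a marker set of another organ and in sex genes. The summed level of 15 pancreas markers was 10.4 TPM in replicate 1 and 1338 TPM in replicate 2, with 4 and 13 of the 15 at 1 TPM or more. Xist had 77.2 and 0.06 TPM, and the 4 Y-linked genes measured had 0 to 0.02 TPM in replicate 1 and 15.9 to 46.5 TPM in replicate 2, although both carry the same mixed-sex label. All values below are therefore given for each library. A lower level in bulk tissue cannot be told apart from fewer cells of the type that expresses the gene.

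Of the 45 imprinted genes 40 were detected, beside 34.2% of all genes in the tables. Among protein-coding genes 34 of 39 were detected, beside 61.3% of all protein-coding genes, and all 6 noncoding RNAs were. The median level over all 45 was 28.5 TPM in replicate 1 and 26.8 TPM in replicate 2, and over all detected genes it was 16.3 and 15.7 TPM. A mean level of at least 100 TPM was reached by 13 imprinted genes, which is 32.5% of those detected, and by 10.4% of all detected genes. The 45 genes held 0.783% and 0.793% of the TPM assigned to genes. The 4 highest levels belonged to Gnas, H19, Mest and Igf2, whose mean levels rank 75, 130, 164 and 169 among all genes. In the order of levels over the 45 genes, 14 of 44 neighbouring pairs had deposited intervals that stood apart in both libraries, and the other 30 pairs did not. Mest and Igf2 were one such unresolved pair, as were Meg3 with Cd81 and Cd81 with Cdkn1c.

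**Figure D1:**
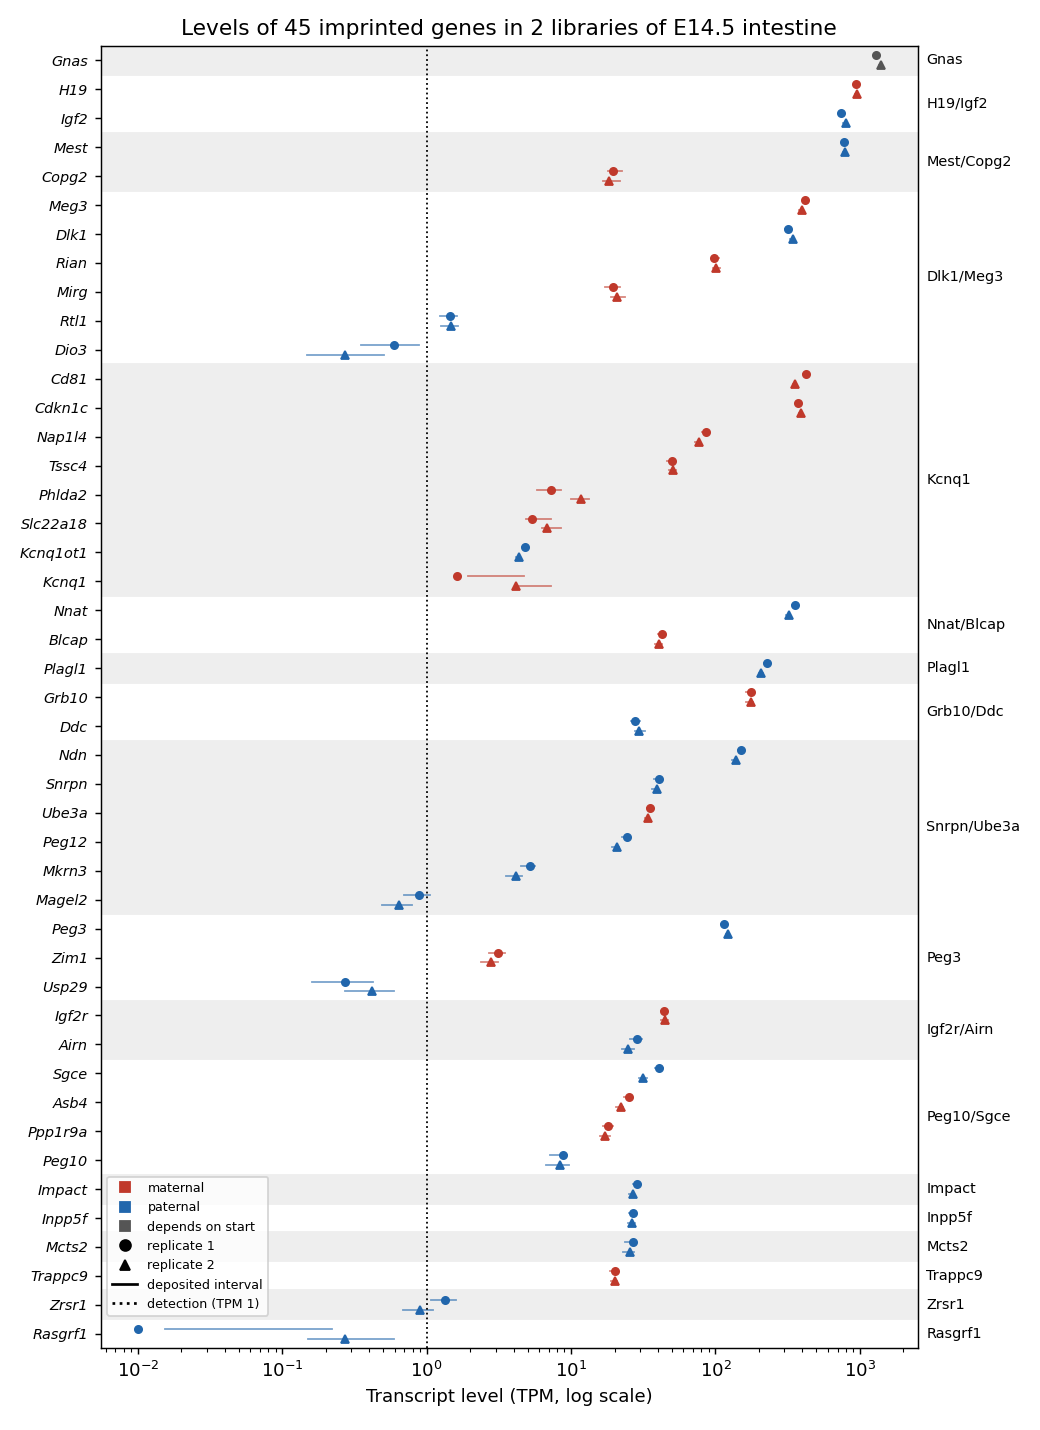
Levels in TPM (log axis) of the 45 imprinted genes, grouped by cluster, with circles for replicate 1, triangles for replicate 2 and thin lines for the deposited intervals of each library. Gnas, H19, Mest and Igf2 lie highest, and the 5 genes under the dotted line at 1 TPM in at least 1 library are all paternally expressed ones.

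The 5 genes that were not detected were Usp29, Dio3, Magel2, Rasgrf1 and Zrsr1. All 5 belong to the 24 paternally expressed genes, and all 20 maternally expressed genes were detected. Medians of the allele classes were 38.9 and 37.4 TPM for the maternal genes and 27.2 and 26.0 TPM for the paternal genes. With only the 29 genes whose imprinting is not limited to placenta, brain, early embryo, part of the cells or 1 isoform, the medians were 34.7 and 33.4 TPM over 10 maternal genes and 26.6 and 24.9 TPM over 19 paternal genes. All 10 of these maternal genes and 15 of the 19 paternal ones were detected. Over all genes of each class the levels spanned more than the distance between the medians. By mean level they ran from Kcnq1 to H19 among the maternal genes and from Rasgrf1 to Mest among the paternal ones.

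Several imprinted genes have more than 1 start site, and the start decides whether a transcript is imprinted. The transcript tables were therefore read by start, joining annotated starts within 500 bases of each other. Mest, which encodes a protein of the alpha/beta hydrolase family, is imprinted at the start that lies in its control region, while transcripts from starts further upstream escape imprinting in some tissues. Its level was 779.8 TPM in replicate 1 and 784.5 TPM in replicate 2. The start at position 30738050 of chromosome 6 gave 97.1% and 97.3% of this level. Of 3 start groups further upstream, that at position 30723547 gave 0.554% and 0.419%, that at 30731968 gave 0.144% and 0.143%, and that at 30733454 gave 0.0269% and 0%. The reference promoters (RefSeq, GRCm38) of the used start and of that at 30733454 are shown to set the used beside a nearly unused start. Capitals mark TGCCGC or its reverse complement GCGGCA, the core that the zinc finger protein Zfp57 binds in methylated DNA to keep imprints.
Mest used start, chr6:30737800-30738099, plus strand: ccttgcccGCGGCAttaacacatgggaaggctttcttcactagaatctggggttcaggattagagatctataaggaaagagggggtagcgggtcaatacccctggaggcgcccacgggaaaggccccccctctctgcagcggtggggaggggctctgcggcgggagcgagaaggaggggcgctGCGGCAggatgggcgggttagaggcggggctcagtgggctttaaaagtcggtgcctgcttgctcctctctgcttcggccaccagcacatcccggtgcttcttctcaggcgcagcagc
Mest upstream start, chr6:30733256-30733555, plus strand: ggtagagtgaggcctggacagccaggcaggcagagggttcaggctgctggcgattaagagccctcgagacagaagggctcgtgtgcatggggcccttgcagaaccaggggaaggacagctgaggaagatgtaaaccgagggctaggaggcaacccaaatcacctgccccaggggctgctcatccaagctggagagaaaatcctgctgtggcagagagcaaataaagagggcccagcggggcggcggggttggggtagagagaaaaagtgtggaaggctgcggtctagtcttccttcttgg
The window of the used start held 2 copies of the motif and 17 CpG sites, and the upstream window held 0 and 8.

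Plagl1, a zinc finger factor that slows cell division, and Snrpn, which encodes a splicing protein, also take their imprinted transcripts from 1 main start. Plagl1 had 226 and 207 TPM, of which 98.3% and 97.6% came from the start group at position 13090691 of chromosome 10. Its leading transcript, Plagl1-202, held 75.6% and 73.3% of the gene, and the short model Plagl1-205 held 4.62% and 6.21%. Snrpn had 40.6 and 39.2 TPM, of which the transcript Snrpn-201, starting at position 60005111 of chromosome 7, gave 98.5% and 95.7%. The other Snrpn start with a measured transcript, 135108 bases upstream, gave 1.53% and 4.28%. At both genes 1 start therefore held nearly all of the level in each library. RefSeq promoters at or near these leading starts are shown, since each holds 1 copy of the motif. The Snrpn window is set on a RefSeq start at position 60005199, so the start at 60005111 lies just outside it.
Plagl1 main start, chr10:13090582-13090881, plus strand: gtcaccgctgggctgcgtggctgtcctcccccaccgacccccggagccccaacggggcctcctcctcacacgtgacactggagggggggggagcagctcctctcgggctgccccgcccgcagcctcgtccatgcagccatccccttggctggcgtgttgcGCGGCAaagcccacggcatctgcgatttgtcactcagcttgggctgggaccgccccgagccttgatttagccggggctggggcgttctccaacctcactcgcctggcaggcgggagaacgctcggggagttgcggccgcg
Snrpn main start, chr7:60005150-60005449, minus strand: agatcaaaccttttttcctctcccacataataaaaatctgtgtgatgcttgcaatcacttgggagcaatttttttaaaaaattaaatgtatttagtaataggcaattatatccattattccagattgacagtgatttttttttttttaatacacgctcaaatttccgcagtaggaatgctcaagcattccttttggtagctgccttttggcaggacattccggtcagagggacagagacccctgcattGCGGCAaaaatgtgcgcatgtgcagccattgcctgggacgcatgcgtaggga

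Grb10 encodes an adaptor that dampens signalling from growth factor receptors, and is expressed from the maternal copy in most tissues but from the paternal copy in neurons, where downstream starts are used. Its level was 176.5 and 175.8 TPM. The main start, that of Grb10-201, gave 56.7% and 53.5% of the TPM but 92.5% and 92.6% of the estimated counts. A group of short models starting 11951 bases downstream of the first start gave 40.2% and 44.5% of the TPM but 4.48% and 5.29% of the counts. Most of that group was Grb10-207, a model of 430 bases that received 536 and 597 counts, so its large share of TPM came from division by a short length. The downstream start of Grb10-203, which has a RefSeq promoter, gave 1.02% and 0.364% of the TPM. Both promoters are shown because they differ in CpG sites, with 45 at the main start and 9 at the downstream one.
Grb10 main start, chr11:12037371-12037670, minus strand: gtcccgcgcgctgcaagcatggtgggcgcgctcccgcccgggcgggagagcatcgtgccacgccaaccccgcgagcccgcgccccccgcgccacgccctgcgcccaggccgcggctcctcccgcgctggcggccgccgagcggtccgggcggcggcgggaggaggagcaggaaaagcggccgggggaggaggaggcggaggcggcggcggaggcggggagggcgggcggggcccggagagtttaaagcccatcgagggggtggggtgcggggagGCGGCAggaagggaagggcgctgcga
Grb10 downstream start, chr11:12027922-12028221, minus strand: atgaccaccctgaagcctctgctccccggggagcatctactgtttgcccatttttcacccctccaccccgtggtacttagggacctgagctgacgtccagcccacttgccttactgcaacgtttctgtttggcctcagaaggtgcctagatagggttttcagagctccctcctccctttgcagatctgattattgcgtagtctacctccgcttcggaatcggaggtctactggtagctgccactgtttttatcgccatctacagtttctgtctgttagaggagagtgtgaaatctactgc
The main window held 1 copy of the motif and the downstream window held 0.

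RefSeq promoter windows of 300 bases (250 before and 50 after the start) were found for 36 of the 45 genes, 52 windows in all. The motif, searched on both strands, lay in 11 of the 52 windows (21.2%), those of 10 genes. It lay in 11.6% of all 32851 windows and in 18.8% of the windows of detected genes. The median number of CpG sites was 13.5 in the windows of imprinted genes, 7 over all windows and 20 over windows of detected genes. A match describes these letters only, and methylation was not measured here.

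Gnas, which encodes the stimulatory G protein subunit that couples hormone receptors to cyclic AMP, carries maternal, paternal and biallelic starts in a row. It had the highest level of the 45 genes, 1302 TPM in replicate 1 and 1397 TPM in replicate 2. The start group at position 174330006 of chromosome 2, that of the G protein transcripts Gnas-208 (74.6% and 74.4% of the gene), Gnas-206 (9.42% and 9.87%) and Gnas-207 (7.50% and 7.35%), gave 91.5% and 91.6%. The first start, 45686 bases upstream of that group, gave 3.43% and 3.63%, which is 44.6 and 50.8 TPM. The group starting 43250 bases after the first start gave 3.09% and 3.02%. The G protein transcripts are biallelic in most tissues, so the high level of Gnas as a whole is mainly that of transcripts that are not imprinted in most cells. The antisense RNA Nespas, which starts near the upstream exons, had 8.16 and 7.07 TPM.

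Inpp5f encodes a phosphoinositide phosphatase, and the known imprinted transcript of this gene starts inside it and comes from the paternal copy in brain. The gene had 26.8 and 26.5 TPM. Inpp5f-208, starting 76218 bases after the first start, held 75.04% and 72.94% of the TPM and 64.5% and 62.5% of the counts. The full-length transcript Inpp5f-201 held 19.5% and 21.2% of the TPM. The start of Inpp5f-208 thus exceeded the full-length one in both libraries and on both measures. A further internal start, that of Inpp5f-203 at 77161 bases after the first, held 0.709% and 0.869% of the TPM. Which of the internal starts makes the imprinted transcript was not tested.

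**Figure D2:**
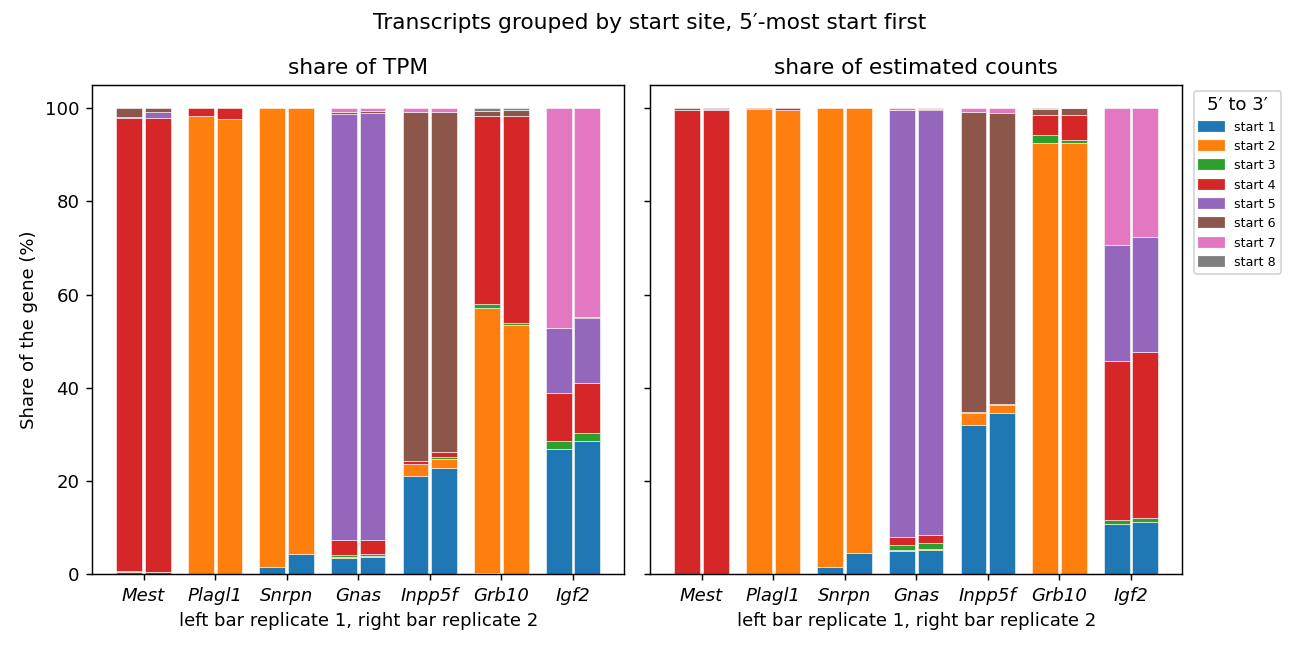
Share of each gene (percent) held by groups of start sites, numbered from the 5′-most, as a share of TPM on the left and of estimated counts on the right, with the left bar for replicate 1 and the right bar for replicate 2. One start holds over 95% of TPM at Mest, Plagl1 and Snrpn, while the shares of Grb10 and Igf2 change between the panels.

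Igf2, the insulin-like growth factor that drives fetal growth, had 745.5 TPM in replicate 1 and 795.6 TPM in replicate 2. Neighbouring H19, a noncoding RNA of the maternal copy, had 942 and 959.8 TPM. The H19 to Igf2 ratio was 1.26 and 1.21, so the noncoding RNA was the higher of the pair in both libraries. Igf2 was spread over several models. Igf2-208, an internal model, held 47.2% and 44.9% of the TPM, Igf2-203 held 26.8% and 28.5%, Igf2-202 held 13.2% and 13.4%, and Igf2-205 held 10.2% and 10.8%. By estimated counts the longest of these, Igf2-205, led with 33.98% and 35.67%. At H19 different models led in the 2 libraries, with H19-203 holding 35.8% and 38.2%.

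Both genes of this pair host a microRNA on their own strand. H19 holds Mir675 and Igf2 holds Mir483, and paternal Mest holds Mir335. Their mature sequences (RefSeq) are shown because these hosts are among the 4 highest genes described here, with the seed, bases 2 to 8, in capitals.
mmu-miR-675-5p: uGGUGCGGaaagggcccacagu
mmu-miR-483-3p: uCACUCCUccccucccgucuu
mmu-miR-335-5p: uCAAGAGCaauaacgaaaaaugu
The 3 seeds differ. Libraries of RNA longer than 200 nucleotides measure the hosts and not the mature microRNAs, whose levels are not known from these data.

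The Dlk1/Meg3 cluster on chromosome 12 pairs paternal coding genes with maternal noncoding RNAs. Dlk1, a membrane protein related to Notch ligands that holds cells back from differentiation, had 316 TPM in replicate 1 and 344 TPM in replicate 2. Among the noncoding RNAs Meg3 had 419 and 395 TPM, Rian, a host of small nucleolar RNAs, had 98.0 and 100.7 TPM, and Mirg, a host of microRNAs, had 19.4 and 20.7 TPM. The 3 maternal RNAs therefore fell in the order of their position along the cluster in both libraries. The Meg3 to Dlk1 ratio was 1.33 and 1.15.

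The other paternal genes of this cluster were low. Rtl1, derived from a retrotransposon and needed in placental vessels, had 1.46 and 1.48 TPM from 212 and 217 counts. Dio3, which inactivates thyroid hormone, had 0.59 and 0.27 TPM from 20 and 11 counts, with deposited intervals that overlap. Rtl1 was thus far below Dlk1 of the same parental copy. On the strand opposite to Rtl1 lie 6 microRNA hairpins, which are made from the maternal copy and are complementary to the Rtl1 transcript. Mir127 is one of them, shown with its seed in capitals for its place within Rtl1.
mmu-miR-127-3p, chr12:109592888-109592909, plus strand: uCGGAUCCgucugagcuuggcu
Mirg spans 14 hairpins on its own strand, Rian 3 and Meg3 1, that of Mir770.

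The Kcnq1 cluster on chromosome 7 had 8 genes, all detected, and 7 of them are listed as maternally expressed. For Kcnq1 itself this listing applies to the early embryo. Cdkn1c, an inhibitor of the cell cycle, had 375 TPM in replicate 1 and 393 TPM in replicate 2. Kcnq1ot1, the paternal noncoding RNA that silences the cluster in cis, had 4.76 and 4.34 TPM. This low level stands over a model of 84395 bases, and in estimated counts Kcnq1ot1 had 9312 and 8589 against 15688 and 16631 for Cdkn1c. The Cdkn1c to Kcnq1ot1 ratio was accordingly 78.8 and 90.6 in TPM and 1.68 and 1.94 in counts. Kcnq1, a potassium channel subunit whose body overlaps Kcnq1ot1 by 93092 bases on the other strand, had 1.62 TPM in replicate 1 and 4.17 TPM in replicate 2 from 110 and 257 estimated counts. Its deposited intervals, 1.93 to 4.75 and 4.16 to 7.31 TPM, overlapped, and the TPM of replicate 1 lies below its own interval. For its main transcript Kcnq1-201, which held 100% and 88.9% of the gene, the intervals of 1.17 to 1.83 and 3.15 to 4.05 TPM did not overlap. Whether reads were assigned by strand is not given in the sources used here.

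Phlda2, which limits placental growth, was at 7.26 TPM in replicate 1 and 11.8 TPM in replicate 2, from 111 and 182 counts. Slc22a18, an organic cation transporter relative, had 5.33 and 6.81 TPM. The other 3 genes are imprinted mainly in placenta, and each was higher than Phlda2 and Slc22a18. Cd81, a tetraspanin, had 420.5 and 357 TPM, Nap1l4, a histone chaperone, had 85.6 and 76.5 TPM, and Tssc4 had 49.7 and 51.0 TPM. No placenta marker was detected, and the 5 markers summed to 0.27 and 0.33 TPM.

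Igf2r, the receptor that removes Igf2 from the cell surface, is maternal, and Airn, the paternal noncoding RNA that silences it, overlaps its first 28354 bases on the other strand. Igf2r had 44.1 TPM in replicate 1 and 44.5 TPM in replicate 2, while Airn had 28.5 and 24.9 TPM from 545 and 501 counts. The Igf2r to Airn ratio was 1.55 and 1.78 in TPM and 15.4 and 16.8 in counts, since the annotated Airn models are spliced and short. Airn is known to be mostly unspliced, and how reads from its introns were treated is not given in the sources used here.

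**Figure D3:**
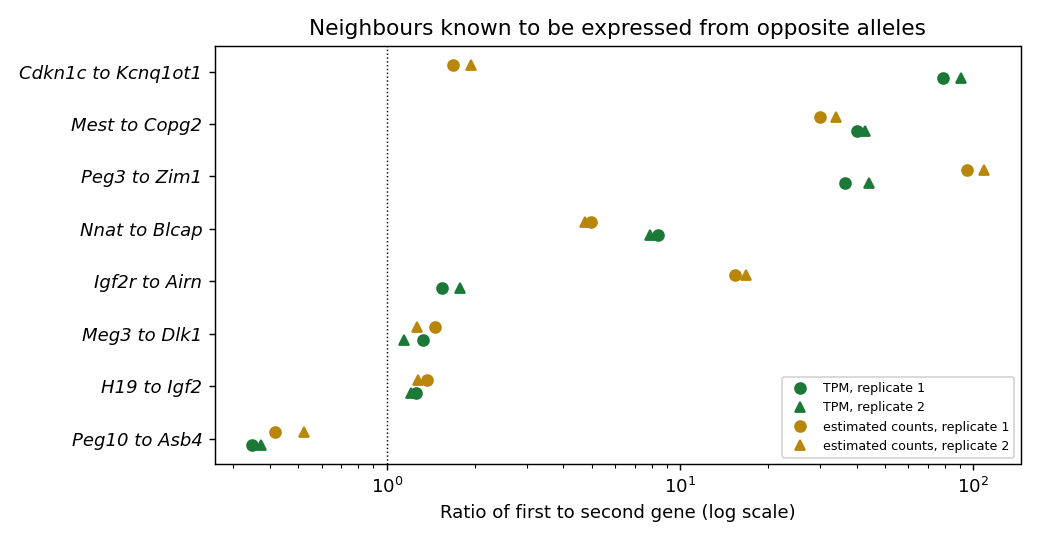
Ratio of the first to the second gene (log axis) for 8 neighbours known from the literature to be expressed from opposite alleles. For Blcap this is known in brain, and for Copg2 in part of the cells. Ratios are in TPM (green) and estimated counts (gold), with circles for replicate 1 and triangles for replicate 2. Peg10 to Asb4 is the only pair below 1, and the 2 pairs with a silencing RNA, Cdkn1c to Kcnq1ot1 and Igf2r to Airn, shift most between the units.

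In the Snrpn/Ube3a cluster on chromosome 7, whose human counterpart is lost in Prader-Willi and Angelman syndromes, levels of the paternal genes spread widely. Ndn, a MAGE family protein of neurons and muscle, had 151 TPM in replicate 1 and 138 TPM in replicate 2. Peg12, a Frat family protein that binds the kinase Gsk3, had 24.5 and 20.7 TPM, and Mkrn3, a ubiquitin ligase linked to the timing of puberty, had 5.19 and 4.14 TPM. Magel2, another MAGE protein, had 0.89 and 0.64 TPM from 94 and 69 counts. Each had the higher TPM in replicate 1, as had 62.7% of all genes tested, and the deposited intervals stood apart for Ndn and Peg12 and overlapped for Mkrn3 and Magel2. Ube3a, a ubiquitin ligase that is maternal only in neurons, had 35.4 and 34.2 TPM, next to Snrpn at 40.6 and 39.2 TPM.

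The Peg3 cluster has the paternal zinc finger gene Peg3 and Usp29, a ubiquitin protease relative. Their gene bounds in the later annotation start 147 bases apart in opposite directions. Peg3 had 114.5 TPM in replicate 1 and 122.8 TPM in replicate 2. Usp29 had 0.27 and 0.42 TPM from 16 and 25 counts, far below Peg3 of the same parental copy. Its only measured transcript, Usp29-201, starts at position 6961160, while the main Peg3 starts begin at 6730419. The Usp29 level is thus not that of a transcript whose start adjoins Peg3. Zim1, the maternal zinc finger gene of the cluster, had 3.14 and 2.79 TPM, and the Peg3 to Zim1 ratio was 36.5 and 44.0.

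Another pair with adjoining gene bounds, Peg10 and Sgce, start 99 bases apart on opposite strands, and here the levels were closer. Peg10, derived from a retrotransposon and needed in placenta, had 8.73 TPM in replicate 1 and 8.33 TPM in replicate 2, while Sgce, a sarcoglycan of muscle and brain, had 40.8 and 31.5 TPM. The long Peg10 models swapped shares between libraries. Peg10-203 went from 41.4% in replicate 1 to 13.4% in replicate 2 and Peg10-202 from 11% to 42.4%, and a transcript that has no match in the later annotation held 47.6% and 44.2%. Their starts lie within 100 bases of each other, and together the annotated models gave 52.3% and 55.8%. Maternal Asb4, a subunit of ubiquitin ligases, had 25.2 and 22.3 TPM. Ppp1r9a, an actin-binding protein of neurons that is listed as maternal in placenta, had 18.1 and 17.3 TPM. The Peg10 to Asb4 ratio was 0.347 and 0.374.

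Nnat, a small membrane protein of the endoplasmic reticulum, lies within an intron of Blcap. Paternal Nnat had 356 TPM in replicate 1 and 321 TPM in replicate 2, and Blcap, which is maternal in brain, had 42.4 and 40.6 TPM. The Nnat to Blcap ratio was 8.41 and 7.91. Copg2, a subunit of the vesicle coat COPI that shares 912 bases at its end with Mest on the other strand, had 19.5 and 18.4 TPM. The Mest to Copg2 ratio was 40.1 and 42.6. Ddc, which makes dopamine and serotonin and lies next to Grb10, is listed as paternal for an isoform and not for the whole gene. Its level over all transcripts was 27.6 and 29.7 TPM. The transcript Ddc-210 held 55.4% and 81.3% of it, and Ddc-201, which starts 100 bases away, held 25.3% and 0%. For each of these transcripts the deposited intervals of the libraries overlapped, and their joint start group gave 80.7% and 81.3%.

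Levels at the remaining single loci were moderate or low. Impact, an inhibitor of the kinase Gcn2, had 28.6 TPM in replicate 1 and 26.8 TPM in replicate 2. Trappc9, a subunit of the vesicle tethering complex TRAPP that is listed as maternal in brain, had 20.0 and 20.2 TPM. A pair of retrogenes, written into introns of other genes and paternally expressed, differed in level. Mcts2, inside H13, had 26.6 and 25.5 TPM beside 84.7 and 87.9 TPM for H13. Zrsr1, inside Commd1, had 1.34 and 0.90 TPM beside 335 and 321 TPM for Commd1. Both retrogenes resemble their source genes, so the assignment of their reads is uncertain. Rasgrf1, an activator of Ras that is imprinted in brain, had 0.01 and 0.27 TPM from 1 and 14 counts. The ratio of these counts was 14, with an exact 95% interval of 2.13 to 592 that covers counting error only, while its deposited intervals in TPM overlapped. Of 5 brain markers only Syn1, at 1.61 and 2.10 TPM, was detected.

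None of the imprinted genes differed between the libraries by the rule used for all genes, which asks for a mean of at least 5 TPM, a difference of at least 1 in log2(TPM + 1) and deposited intervals that do not overlap. By that rule 0.495% of the 11324 genes tested differed, and 35 of the 45 imprinted genes entered. The median size of the difference was 0.09 on the log2 scale over the 35 genes and 0.11 over all genes tested. The median signed difference, replicate 2 minus replicate 1, was -0.05 in both sets. The largest was that of Phlda2, 0.63, and the Kcnq1 difference of 0.98 belongs to a gene under the mean level.

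By intervals alone, 6 imprinted genes were higher in replicate 2 (17.1% of 35, beside 7.23% of all genes tested), 9 were lower (25.7%, beside 17.9%) and 20 overlapped. The 6 were Igf2, Cdkn1c, Phlda2, Peg3, Dlk1 and Gnas, and the 9 were Cd81, Nap1l4, Sgce, Asb4, Meg3, Ndn, Peg12, Nnat and Plagl1. Of the 15 genes 10 had a mean level of at least 100 TPM, 5 in each direction, which is 38.5% each way of the 13 imprinted genes at that level. Over all genes at that level the shares were 15.7% higher and 29.2% lower. The intervals tend to narrow as counts rise, though not by counts alone. In replicate 1 the width was 87.5% of the posterior mean for Kcnq1 with 110 counts and 37.0% for Phlda2 with 111. Each interval comes from 1 library and holds no spread between animals, so a small difference at a high level can pass. That of Gnas was 0.10 on the log2 scale and that of Cd81 was -0.23. Scaling on the spike-ins shifts replicate 2 by -0.10 on the log2 scale, and then Igf2, Cdkn1c and Peg3 no longer lie higher in replicate 2, while H19 and Mest lie lower with intervals apart. H19 and Mest lie higher with intervals apart under TMM and DESeq2 scaling, so their direction flips with the scaling. Under the deposited values and 3 other scalings, 1 gene, Phlda2, stayed higher (2.86% of 35, beside 2.82% of all genes tested), and Cd81, Nap1l4, Sgce, Ndn, Peg12 and Nnat stayed lower (17.1%, beside 10.7%). The pancreas markers above were also higher in replicate 2, and their part in these differences was not tested.

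**Figure D4:**
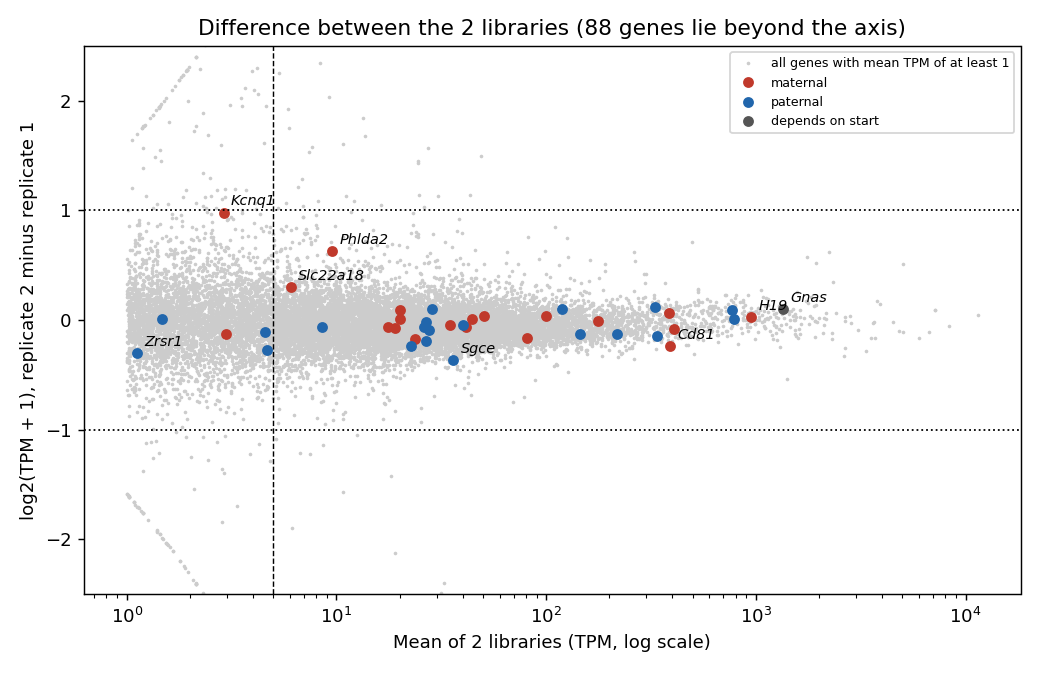
Difference in log2(TPM + 1), replicate 2 minus replicate 1, against mean TPM (log axis), with grey points for all genes of at least 1 TPM and coloured points for imprinted genes. The dashed line marks the mean of 5 TPM and the dotted lines a difference of 1, and Phlda2 at 0.63 lies farthest from 0 among the imprinted genes right of the dashed line.

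RNA levels were read for a separate list of 20 genes for proteins that set or keep imprints or act on DNA methylation. Of these 16 were detected. The median level of this list was 34.7 TPM in replicate 1 and 32.3 TPM in replicate 2. Zfp57, which reads the motif shown above, had 67.2 and 61.6 TPM, and its partner Trim28, which recruits silencing enzymes, had 316 and 333 TPM. Uhrf1, which brings the maintenance methyltransferase to newly copied DNA, had 97.3 and 95.5 TPM. The 4 that were not detected are known mainly from germ cells and the early embryo. They were Dppa3, listed at 0 in both libraries, Dnmt3l with 0 and 0.26 TPM, Zfp42 with 0.13 in both, and Ctcfl with 0.12 and 0.10 TPM.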

How the data were processed

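Total RNA of embryonic intestine was measured in 2 libraries with 32938592 and 32371363 estimated counts in genes. Per the file headers and notes, the authors mapped reads to mm10, used GENCODE M4 as annotation and quantified each library separately. What tool assigned the reads, and whether by strand, is not given in the sources used here. By the file headers, the authors assigned aligned reads to genes and transcripts and deposited the resulting expected counts, some of which are fractional. The authors computed the deposited TPM across every feature, spike-ins included (9.77% and 10.4% of TPM). The deposited percent of each isoform in its gene was used as given. The posterior mean TPM and its interval bounds, deposited by the authors, were taken as scores. The interval's level is not given in the sources used here, and the deposited TPM lay outside its interval for 9 and 7 of the 35 imprinted genes tested. Counts used for scaling were rounded.

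Symbols came from GENCODE M21 (42462 of 43346 identifiers matched). Replicates were never averaged without both values, and there was no test between groups. Every listed gene was named. Of other lists the rule named the 2 highest genes, undetected genes of short lists, and genes differing between libraries, of which 1 is not reported here. Transcripts were named if leading, or at 8 fixed genes if their mean share was at least 5%. The genes and lists were chosen with earlier results of these data known. Start groups, shares and ratios of counts, and the restriction to broadly imprinted genes in the overall median were chosen after seeing the data. Alternatives were other detection limits, pseudocounts, scalings by TMM (edgeR 4.0.16), DESeq2 1.42.0 size factors and spike-ins, posterior means, and each library alone. Python 3.11.15 with pandas 2.3.3 and scipy 1.17.1 was used, and the calling rule and motif search were tested on simulated data. Reads copied by amplification are not separate molecules, and intervals made from 1 library hold no spread between animals.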

Additional observations from a re-analysis of the deposited data

How the results depend on the processing

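With 2 libraries of 1 group no spread between embryos, stages or litters can be tested, and library, collection date and sex genes differ together. Detection of 40 genes stayed within 1.5 times under every limit tried. No paired analysis was possible because there was only 1 group. Rescaling TPM over nuclear protein-coding genes gave medians of 36.2 TPM over all imprinted genes, 49.9 over maternal and 34.9 over paternal ones, since these leave out spike-ins and other features. Broadly imprinted genes alone gave 25.8 TPM overall and 34.02 for maternal ones. Under spike-in scaling 1 gene was higher in replicate 2 (2.86% of 35, beside 2.81% of all genes tested) and 16 were lower (45.7%, beside 39.3%). The log2 differences of Igf2, Cdkn1c and Peg3 then reversed to -0.0073, -0.033 and -0.00057 and lost separation, those of H19 and Mest reversed to -0.074 and -0.092 and gained it, and Tssc4, Igf2r, Rian, Mirg and Trappc9 also changed sign. Over 105 differences under 3 scalings, 10 lost and 11 gained separation of their intervals and 16 changed sign.

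In estimated counts, not divided by length, the ratios were 1.32 (H19 to Igf2), 16.1 (Igf2r to Airn), 1.81 (Cdkn1c to Kcnq1ot1), 1.37 (Meg3 to Dlk1), 101.9 (Peg3 to Zim1), 4.86 (Nnat to Blcap), 32.0 (Mest to Copg2) and 0.470 (Peg10 to Asb4). With posterior means Mest to Copg2 was 39.0. Count shares of the start that leads by TPM were 91.3% for Gnas, 92.5% for Grb10, 99.5% for Mest, 28.5% for Igf2, 63.5% for Inpp5f and 99.7% for Plagl1. By posterior mean TPM the shares of that start were 91.5% for Gnas and 96.5% for Mest. With starts joined within 2000 bases the leading Gnas group held 94.6% of the TPM. It then took in the group starting 43250 bases after the first start.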

Other observations

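Of 40 further genes reported as imprinted in some tissue, 37 were measured and 28 detected, with a median of 6.92 TPM in replicate 1 and 6.96 TPM in replicate 2. The highest was Dcn, a collagen-binding proteoglycan, with 220 and 237 TPM, and of those detected in both libraries Dhcr7 was next, the last enzyme of cholesterol synthesis, with 63.1 and 65.3 TPM. Ins2, which encodes insulin and is imprinted in yolk sac, was the only one that differed between the libraries, with 0 counts in replicate 1 and 1323 counts, or 155 TPM, in replicate 2. Of 15 pancreas markers 11 differed by the same rule, Ins2 among them. Nap1l5, a paternal retrogene inside Herc3, had 8.66 and 8.50 TPM beside 8.62 and 6.97 TPM for Herc3.

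Among 28 imprinted genes with several transcripts and a mean of at least 5 TPM, the leading transcript held at least 75% of the gene at 12 and under 50% at 8. The same transcript led in both libraries at 25, and H19, Ppp1r9a and Rian were the exceptions. Leading shares over 90% in both libraries were those of Cd81 with Cd81-201 (98.8% and 98.8%), Igf2r with Igf2r-201 (93.2% and 91.4%), Mest and Snrpn. Shares above 70% in both libraries were also those of Gnas, Inpp5f and Plagl1, given above. Further such shares were held by Peg3-201 (92.9% and 87.2%), Blcap-202 (94% and 87.6%), Slc22a18-201 (88.5% and 76.4%) and Asb4-201 (86.6% and 87.4%). The same held for Cdkn1c-201 (83.5% and 82.9%), Dlk1-205 (79.9% and 76.8%), Copg2-201 (77.6% and 73.5%), Trappc9-202 (74.7% and 80.2%) and Meg3-205 (73.8% and 73.4%). Lower leading shares were those of Igf2, H19, Grb10, Peg10 and Ddc, given above, and of Nnat-202 (59.4% and 59.1%) and Airn-201 (51.8% and 53.2%). Others were those of Tssc4-206 (50.7% and 46.5%), Sgce-205 (46.5% and 50.4%), Mirg-207 (34.9% and 33.9%), Ppp1r9a-201 (31.4% and 27.0%) and Rian-202 (31.5% and 28.7%).

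The highest markers were Epcam (517 and 505 TPM) and Lgals4 (479 and 579.5 TPM) for epithelium, Col3a1 (1673 and 1496 TPM) and Acta2 (1633 and 1478 TPM) for mesenchyme and muscle, and Gap43 (87.1 and 81.3 TPM) and Uchl1 (84.1 and 77.9 TPM) for enteric neurons. Of 5 liver markers 4 were detected, led by Serpina1b (46.3 and 45.7 TPM) and Ttr (29.98 and 44.28 TPM), and Alb had 0.82 and 0.13 TPM. The pancreas markers that differed included Ins1, Gcg, Ctrb1, Cel, Cela1, Cpa1, Pnliprp1, Prss1 and Amy2a5, each higher in replicate 2. The highest of these were Pnliprp1, with 1.67 and 355 TPM, and Ctrb1, with 0 and 300.1 TPM. The sex genes that differed were Xist, higher in replicate 1, and Eif2s3y, Ddx3y, Kdm5d and Uty, higher in replicate 2. The markers that were not detected were Gfap (0.46 and 0.22 TPM), Tbr1, Neurod6 and Slc17a7 for brain, the last 3 at no more than 0.04 TPM, and Prl3d1, Prl2c2, Psg17, Tpbpa and Cts7 for placenta, at no more than 0.23 TPM.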
